A study of Mus musculus with 20 samples.

Results

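The Cyp2d genes are a tandem family of cytochrome P450 genes, and 9 of them were followed here by their symbols, Cyp2d9, Cyp2d10, Cyp2d11, Cyp2d12, Cyp2d13, Cyp2d22, Cyp2d26, Cyp2d34 and Cyp2d40, among 25444 loci of the deposited expression tables. Their RNA was measured by RNA-seq in the left lateral liver lobe of 20 mice at 20 weeks of age, 5 mice in each of 4 groups. The groups were female C57BL/6N (B6_F), male C57BL/6N (B6_M), female C3H/HeN (C3_F) and male C3H/HeN (C3_M). Both strains are inbred and no mouse was treated. All mice were single housed, changed diet before collection and were kept with females and males in separate rooms, so that sex and room cannot be told apart. The design asks how liver RNA differs between the sexes within each strain, between the strains within each sex, and whether the sex difference depends on strain.

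Cytochrome P450 enzymes are heme proteins of the endoplasmic reticulum that oxidize steroids, fatty acids and drugs, and they take their electrons from the reductase encoded by Por. Mice carry several Cyp2d genes where the human genome has CYP2D6, a main enzyme of drug metabolism in liver. Cyp2d9 encodes a testosterone 16-alpha-hydroxylase and is a classical example of a gene with male-biased expression in mouse liver, where the pulsatile growth hormone secretion of males acts through STAT5b, and where the GA-binding protein and the zinc finger repressor RSL1 are known to act on the gene.

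All 9 members lay on chromosome 15 (mm9) within a span of 423.7 kb, in the order Cyp2d22, Cyp2d11, Cyp2d10, Cyp2d9, Cyp2d12, Cyp2d34, Cyp2d13, Cyp2d40 and Cyp2d26. Cyp2d9 (gene ID 13105, chr15:82282807-82287257) and Cyp2d12 were on the plus strand and the other 7 on the minus strand. RefSeq lists Cyp2d13 as a transcribed pseudogene and the other 8 as protein coding. A further row of the family, the pseudogene Cyp2d37-ps between Cyp2d13 and Cyp2d40, was not a member and held 964 to 3560 counts per liver. Within their coding sequences (GENCODE M1), Cyp2d9 was 93.3% identical to Cyp2d11, 92.5% to Cyp2d10, 92.1% to Cyp2d12 and 89.6% to Cyp2d34 over aligned bases. Identity with Cyp2d9 was 85.1% in Cyp2d40, 82.3% in Cyp2d26 and 79.0% in Cyp2d22, while Cyp2d13 had no transcript in that annotation and was not compared. Since read pairs that mapped to several places were not counted, it matters how much of each transcript is unique. Of all stretches of 125 bases, the length of a read, 9.6% of Cyp2d10, 7.2% of Cyp2d11, 4.8% of Cyp2d9 and 2.3% of Cyp2d12 occurred again elsewhere in the locus or in another transcript, against 0 stretches of Cyp2d22, Cyp2d26, Cyp2d34 and Cyp2d40. The counts of these near-identical copies are therefore uncertain to the extent that shared reads were dropped. Reads placed at the wrong copy would also change the counts, and their number was not tested.

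The 250 bases before the first base of a gene are shown for Cyp2d9 and for the neighbours Cyp2d11 and Cyp2d10, because these 3 genes share most of this sequence while their sex differences, given below by gene, were unlike. Over aligned bases, the Cyp2d9 window was 93.6% identical to that of Cyp2d11 and 85.0% to that of Cyp2d10. The sequences come from the mm9 genome and are written 5′ to 3′ on the strand of the gene, at chr15:82282557-82282806 (plus strand) for Cyp2d9, chr15:82224453-82224702 (minus strand) for Cyp2d11 and chr15:82237625-82237874 (minus strand) for Cyp2d10. In Cyp2d9 the capitals mark TTCCGG, letters bound by the GA-binding protein. In the other 2 sequences they mark bases that differ from the aligned base of Cyp2d9 or have no partner in it.
Cyp2d9: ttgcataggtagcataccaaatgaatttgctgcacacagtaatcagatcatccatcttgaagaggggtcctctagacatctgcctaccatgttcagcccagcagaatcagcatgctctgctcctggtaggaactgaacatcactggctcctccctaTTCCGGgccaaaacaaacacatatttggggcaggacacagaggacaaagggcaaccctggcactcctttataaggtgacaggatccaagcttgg
Cyp2d11: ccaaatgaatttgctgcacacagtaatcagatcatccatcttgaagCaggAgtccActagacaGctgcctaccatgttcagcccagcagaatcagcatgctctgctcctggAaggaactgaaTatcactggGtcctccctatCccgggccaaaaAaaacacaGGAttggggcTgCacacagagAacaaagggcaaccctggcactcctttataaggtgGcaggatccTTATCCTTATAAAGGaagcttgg
Cyp2d10: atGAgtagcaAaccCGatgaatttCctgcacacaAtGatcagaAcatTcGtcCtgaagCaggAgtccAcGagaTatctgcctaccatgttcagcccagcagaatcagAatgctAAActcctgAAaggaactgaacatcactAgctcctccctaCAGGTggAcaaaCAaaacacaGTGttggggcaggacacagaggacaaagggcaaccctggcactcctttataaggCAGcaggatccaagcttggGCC

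On either strand, TTCCGG was found in 1 of the 9 windows, that of Cyp2d9, with its first base 94 bases before the gene start (position -94), and in 14.3% of the 24605 windows of this length before the genes of the tables. CAAAGGGCA, which is part of a longer stretch common to the 3 sequences, stood before 7 of the 9 members, Cyp2d22 and Cyp2d26 being without it, at positions between -113 and -50. It was found in 0.467% of all windows. These letters were chosen after the sequences had been seen. The TATA letters TATAAA, which a core promoter may hold, occurred on either strand before 8 of 9 members and in 12.1% of all windows. TTCNNNGAA, the letters of a STAT5 site, were in 0 of 9 member windows and in 6.84% of all windows. CAAAGTCCA, 1 form of the letters of an HNF4A site, was in 0 of 9 and 0.41%, which does not cover other forms of that site. A match describes the letters only, and its absence says nothing beyond this window.

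Markers of the labelled tissue were present in every liver. Summed over 6 hepatocyte markers, expression was 83700 to 177000 TPM (counts scaled by gene length and library) per liver. The erythroid genes Hba-a1 and Hbb-b1 had 0 counts in every liver, while the erythroid gene Alas2 had 667 to 9525. The 0 counts therefore do not show that blood RNA was absent, and their cause was not tested. Of 6 kidney and intestine markers, Umod, Slc12a1, Nphs1 and Lct had at most 3 counts in every liver, whereas Vil1 reached 34 counts and Fabp2, a fatty acid binding protein, had 1060 to 3794 counts (76.9 to 191 TPM). The summed TPM of the 6 overlapped between the groups, at 77.1 to 153 in B6_F, 95.8 to 179 in B6_M, 93.5 to 191 in C3_F and 104 to 173 in C3_M. Libraries held 27370921 to 46835745 counts and were sequenced in 3 pools of 8, 5 and 7 libraries, of which pool 3 was the deepest (38928480 to 46835745). B6_F, B6_M and C3_F each had 2, 1 and 2 livers in pools 1, 2 and 3, and C3_M had 2, 2 and 1. The 3 counts at which a gene can be seen correspond to 0.0641 to 0.110 CPM (counts scaled to library size, with TMM factors in all values for members), which covers counting error only.

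Of the 9 members, 8 passed the filter on low counts and were tested. Cyp2d34 did not pass: it had 9 counts in all 20 livers together and at most 3 in any liver, so that its expression could not be compared at this depth. On the TPM scale, which allows genes to be compared, the remaining members fell into 2 ranges in every group. Cyp2d26, Cyp2d10, Cyp2d13, Cyp2d22, Cyp2d40 and Cyp2d9 had group means between 59.3 and 1933 TPM, whereas Cyp2d11 and Cyp2d12 had group means between 0.152 and 1.22 TPM.

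The order of the abundant members depended on sex through Cyp2d9. In B6 females Cyp2d26 came first with 1429 ± 218 TPM (SD, n = 5 here and in all group means), ahead of Cyp2d10 with 855 ± 129 TPM and Cyp2d13 with 281 ± 35.3 TPM. The livers of these 3 genes did not overlap with those of the next gene in the order, whereas Cyp2d22 with 126 ± 26.9 TPM overlapped with Cyp2d9 with 80.9 ± 26.7 TPM, and Cyp2d9 with Cyp2d40 with 59.3 ± 23.9 TPM. In C3 females the first 3 places were the same, and Cyp2d9, Cyp2d22 and Cyp2d40 again overlapped, at means of 99.8, 94.0 and 76.4 TPM.

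In males Cyp2d9 moved to the first place in both strains. It reached 1821 ± 283 TPM in B6 males, where its range overlapped with that of Cyp2d26 (1219 ± 178 TPM), and 1933 ± 201 TPM in C3 males, where it did not overlap with Cyp2d26 (1089 ± 105 TPM). Among all 25444 loci, the mean TPM of Cyp2d9 ranked 73rd in B6 males and 65th in C3 males, but 1398th in B6 females and 1141st in C3 females. Cyp2d26 ranked between 81st and 107th and Cyp2d10 between 121st and 165th in the 4 groups.

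**Figure D1:**
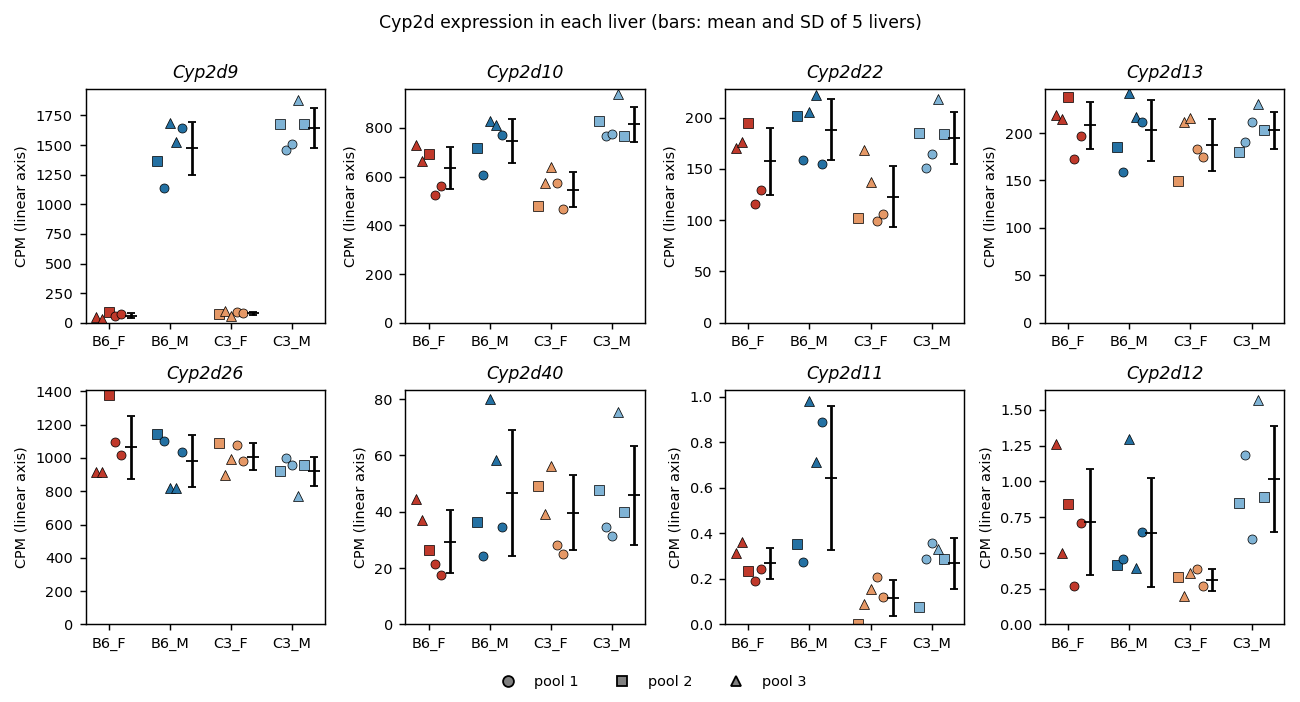
CPM of the 8 Cyp2d genes tested in each liver on linear axes that start at 0, by group on the horizontal axis, with the sequencing pool as the symbol and the mean and SD of 5 livers as a bar. Cyp2d9 was at 34.7 to 95.3 CPM in the 10 females and at 1136 to 1884 CPM in the 10 males, while the other panels overlap between the sexes in B6.

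Cyp2d9, the testosterone hydroxylase, was the member with the largest sex difference in both strains. In the 5 B6 females it was measured at 52.7, 34.7, 89.0, 53.8 and 72.8 CPM. In the 5 B6 males it was measured at 1368, 1136, 1687, 1524 and 1641 CPM. Every male liver lay above every female liver by more than the whole spread of the females.

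The C3 mice gave a like picture. The 5 C3 females had 69.8, 95.3, 56.9, 89.0 and 79.7 CPM. The 5 C3 males had 1679, 1457, 1512, 1884 and 1674 CPM. In relative terms the females varied more among themselves, with a coefficient of variation of 34.4% in B6 and 19.6% in C3, than the males, with 15.2% in B6 and 10.2% in C3.

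The fitted log2 fold change of Cyp2d9 (female over male) was -4.62 with a standard error of 0.22 in B6, which is 24.6-fold lower in females (adjusted p = 2.07e-11), and -4.36 with a standard error of 0.22 in C3, which is 20.5-fold lower (adjusted p = 4.08e-11). By its p-value it ranked 19th of 13704 genes tested in B6 and 24th in C3. Within the pools, the difference of mean log2 CPM was -4.45, -3.94 and -5.23 in B6 and -4.14, -4.59 and -4.68 in C3 (pools 1, 2 and 3). Here and for the other members, the within-pool values rest on few livers. Those of B6_F, B6_M and C3_F in pool 2 and of C3_M in pool 3 come from 1 liver.

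Cyp2d9 was the only member called in B6 by the adjusted p under 0.001 and log2 fold change beyond 0.5 that the methods set, thus 1 of 8 members tested. Of all genes tested, 6.34% were called in B6 and 3.12% were called lower in females. In C3, 3 of 8 members were called, all lower in females, with 6.90% of all genes called and 2.79% called lower in females. Cyp2d9 was called lower in females in both strains, as were 1.52% of all genes. The groups did not overlap for 1 member in B6 and for 3 in C3, all lower in females, where 5.10% and 5.68% of all genes were lower in females without overlap. At an adjusted p under 0.05 with no fold limit, 5 of 8 members passed in B6 and 6 of 8 in C3, where 34.6% and 40.0% of all genes did. The median log2 fold change over the 8 members was -0.25 in B6 and -0.61 in C3, against 0.00 and 0.01 over all genes tested.

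**Figure D2:**
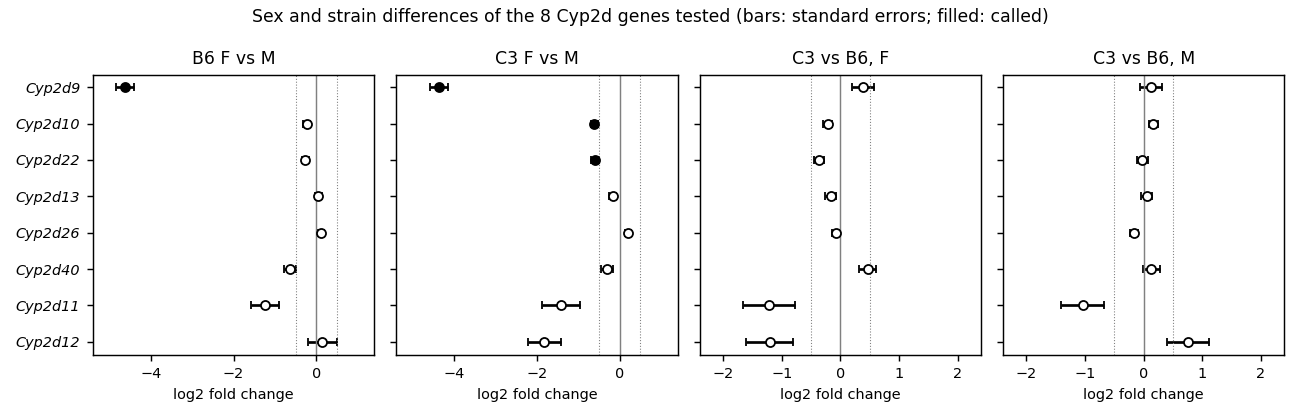
Log2 fold change of the 8 Cyp2d genes tested in the 4 comparisons, with standard errors as bars, filled points for called genes and dotted lines at -0.5 and 0.5. The sex comparisons share an axis range wider than that of the strain comparisons, in which no point is filled.

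The other 2 members called in C3, Cyp2d10 and Cyp2d22, changed much less than Cyp2d9. Cyp2d10, the closest to Cyp2d9 among the abundant members whose coding sequences were compared, was at 479, 572, 641, 573 and 467 CPM in the 5 C3 females. The 5 C3 males had 827, 766, 773, 938 and 766 CPM, and the sexes did not overlap. Its log2 fold change of -0.62 had a standard error of 0.08 (adjusted p = 1.18e-05) and stands for a 1.53-fold lower level in females, with -0.57, -0.73 and -0.63 within the pools.

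In B6 the same gene overlapped between the sexes. B6 females had 729, 665, 692, 525 and 563 CPM. B6 males had 718, 606, 828.6, 813 and 773 CPM. With a log2 fold change of -0.24 and a standard error of 0.08 (adjusted p = 0.0234), it was short of both thresholds. The difference between the strains in this sex difference was -0.38 on the log2 scale (standard error 0.11) with an adjusted p of 0.0759, so that a dependence of Cyp2d10 on strain was not called.

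Cyp2d22, which among the mouse genes is often set beside human CYP2D6, was at 103, 169, 137, 99.5 and 106 CPM in C3 females. In C3 males it was at 185, 150, 165, 218 and 184 CPM. The C3 females with 169 and 137 CPM were both from pool 3, and the first of them lay above the 2 lowest males. It had a log2 fold change of -0.60 with a standard error of 0.09 (adjusted p = 5.70e-05), and -0.62, -0.85 and -0.52 within the pools. In B6 it was -0.27 (standard error 0.09, adjusted p = 0.0242) and the sexes overlapped. The sex difference of Cyp2d22 differed between the strains by -0.34 (standard error 0.12, adjusted p = 0.17).

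The calls of Cyp2d10 and Cyp2d22 in C3 were lost when the fit had no term for pool (adjusted p of 0.00157 and 0.0254), when the change was tested against 0.5 rather than 0 (0.267 and 0.419) and when the 7 libraries of pool 3 were left out (0.00242 and 0.00114). That of Cyp2d22 was also lost with limma on log2(TPM + 1), by its log2 fold change of -0.498 (adjusted p = 4.73e-04). Their log2 fold changes stayed between -0.64 and -0.51 for Cyp2d10 and between -0.69 and -0.50 for Cyp2d22 over the 15 alternatives other than leaving out 1 library. Of these, the settings with no fold limit and the test against 0.5 kept the main fit and its log2 fold changes. With 1 library left out the log2 fold changes were -0.678 to -0.564 for Cyp2d10 and -0.669 to -0.501 for Cyp2d22.

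Cyp2d26 and Cyp2d13, the abundant member at one end of the locus and the transcribed pseudogene, passed the thresholds in no sex comparison. Cyp2d26 had 915, 918, 1376, 1096 and 1020 CPM in B6 females. It had 1143, 1101, 819, 819 and 1034 CPM in B6 males, within the range of the females but for the 2 lowest males. Both of these were from pool 3. Its log2 fold change reached 0.12 (standard error 0.07, adjusted p = 0.204) in B6 and 0.21 (standard error 0.07, adjusted p = 0.0254) in C3. Cyp2d13 ranged from 149 to 242 CPM over the 20 livers and had log2 fold changes of 0.05 in B6 and -0.17 in C3, with standard errors of 0.09 in both.

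Cyp2d40 was the member that differed most between pools. Its fitted level in pool 3 was 1.07 higher on the log2 scale than in pool 1, where the median absolute difference over all genes was 0.295. In B6 females it had 44.5, 37.1, 26.3, 21.4 and 17.5 CPM, of which the first 2 were in pool 3. In B6 males it had 36.4, 24.1, 80.0, 58.3 and 34.6 CPM, of which 80.0 and 58.3 were in pool 3. The sexes overlapped across pools. The fitted log2 fold change was -0.64 (standard error 0.14) with an adjusted p of 0.00221, above the limit of 0.001, and the within-pool differences were -0.58, -0.47 and -0.75. With DESeq2, the tool of the methods, the adjusted p was 1.07e-04 and Cyp2d40 was called. In C3 its log2 fold change of -0.30 (standard error 0.14) had an adjusted p of 0.104, and the within-pool differences did not share a sign (-0.31, 0.17 and -0.68). The other members differed between pool 3 and pool 1 by -0.26 (Cyp2d26) to 0.56 (Cyp2d12), and Cyp2d9 by -0.05.

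**Figure D3:**
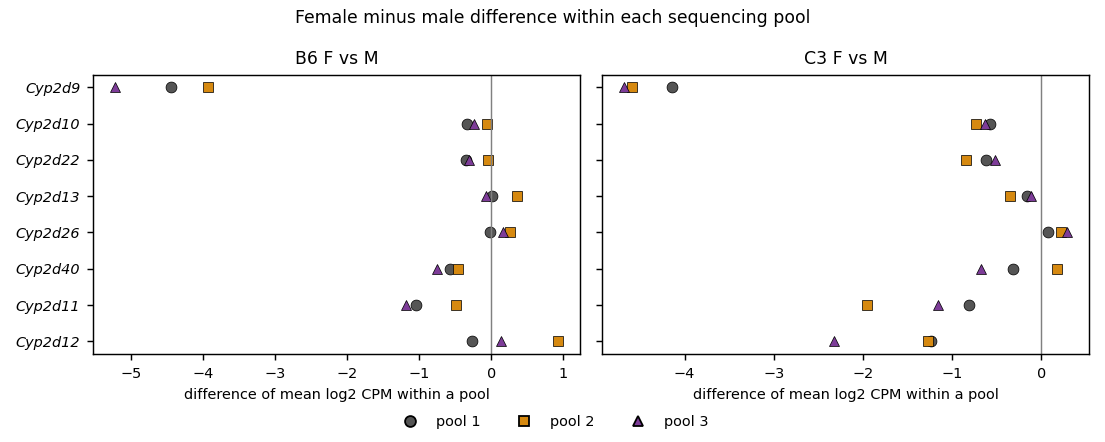
Female minus male difference of mean log2 CPM within each of the 3 sequencing pools, for the 8 Cyp2d genes tested in B6 and C3. The values of B6_F, B6_M and C3_F in pool 2 and of C3_M in pool 3 come from 1 liver. Cyp2d9 lies between -5.23 and -3.94 in each pool, whereas Cyp2d40 in C3 and Cyp2d12, Cyp2d13 and Cyp2d26 in B6 lie on both sides of 0.

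The weakly expressed members Cyp2d11 and Cyp2d12 rest on few counts. Cyp2d11, next to Cyp2d9 in sequence, had 16, 18, 7, 7 and 9 counts in B6 females and 11, 9, 40, 29 and 29 counts in B6 males. It had 0, 4, 7, 7 and 4 counts in C3 females and 2, 10, 12, 14 and 8 counts in C3 males. The groups overlapped in both strains. The log2 fold changes of -1.24 (standard error 0.34, adjusted p = 0.00935) in B6 and -1.42 (standard error 0.46, adjusted p = 0.0211) in C3 were not called. Whether these few counts hold misplaced reads of Cyp2d9 or Cyp2d10 was not tested.

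Cyp2d12 had 64, 25, 25, 10 and 26 counts in B6 females and 13, 15, 53, 16 and 21 counts in B6 males. In the C3 mice it had 10, 9, 16, 13 and 9 counts in females and 22, 41, 20, 66 and 25 counts in males. In CPM the sexes overlapped in B6 and did not overlap in C3. Its log2 fold change came to 0.15 (standard error 0.36, adjusted p = 0.78) in B6 and -1.82 (standard error 0.39, adjusted p = 0.00166) in C3, so that Cyp2d12 missed the limit of 0.001 in C3, while DESeq2 called it (adjusted p = 1.02e-04). Its sex difference was the one that differed most between the strains, by -1.97 on the log2 scale (standard error 0.53), with an adjusted p of 0.0529.

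Of the 8 members, 0 were called between the strains by edgeR's quasi-likelihood test, in females or in males, where 9.40% and 9.64% of all genes were called, and DESeq2 and limma called 0 as well. At an unadjusted p under 0.05, 5 members differed in females and 3 in males, where 41.9% and 44.3% of all genes did. At an adjusted p under 0.05 with no fold limit it was 5 members in females and 1 in males, where 32.9% and 34.5% of all genes passed. The member with the smallest adjusted p was Cyp2d22, at a log2 fold change (C3 over B6) of -0.36 in females (standard error 0.09, adjusted p = 0.0037) and of -0.02 in males (standard error 0.09, adjusted p = 0.871). Cyp2d11 was lower in C3 by -1.22 in females and -1.04 in males (adjusted p of 0.0413 and 0.0329), and Cyp2d40 higher in C3 females by 0.47 (adjusted p = 0.0175), neither of them past the threshold. Reads of both strains were aligned to the same reference, mm9. The effect of sequence differences between the strains on the counts was not tested. Cyp2d9 had a log2 fold change of 0.39 in females (standard error 0.19, adjusted p = 0.137) and 0.12 in males (standard error 0.19, adjusted p = 0.655), and for no member did the strains separate without overlap, as 12.8% of all genes did in females and 15.1% in males. For the sex-by-strain interaction, 0 of 8 members were called by edgeR, DESeq2 or limma, with 0.401% of all genes called by edgeR, and 3 members had an unadjusted p under 0.05, where 16.1% of all genes did. At an adjusted p under 0.05 by edgeR, 0 members and 2.96% of all genes passed. With DESeq2 the adjusted p of the interaction was 0.0281 for Cyp2d10 and 0.0163 for Cyp2d12. With limma on log2(TPM + 1) it was 0.0431 for Cyp2d10. The interaction of Cyp2d9 was 0.26 (standard error 0.27, adjusted p = 0.702).

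Summed over the 9 members, the level separated the sexes with Cyp2d9 and overlapped between them without it. For B6 the sum was 2832 ± 305 TPM in females against 4447 ± 358 TPM in males, and for C3 it was 2503 ± 151 TPM against 4432 ± 247 TPM, with no overlap between the sexes of a strain. Without Cyp2d9 the sums were 2751, 2626, 2403 and 2499 TPM in the same order. The ratio of male to female means was 1.57 in B6 and 1.77 in C3 with Cyp2d9, and 0.955 and 1.04 without it.

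Cyp2d9 made up 40.7% ± 3.43 of the sum in B6 males and 43.5% ± 2.11 in C3 males, but 2.84% ± 0.788 in B6 females and 4.01% ± 0.848 in C3 females. Cyp2d26 made up 50.5% and 51.7% in females and 27.7% and 24.7% in males, and Cyp2d10 30.2% and 27.9% in females and 20.8% and 21.7% in males (B6 and C3). The shares of a liver add up to the whole, so that a share can be lower where the level is not. The mean TPM of Cyp2d10 was higher in males (928 against 855 in B6 and 961 against 701 in C3). The mean TPM of Cyp2d26 was lower in males (1219 against 1429 in B6 and 1089 against 1291 in C3), with overlap in B6 and none in C3, where the highest male had 1186 and the lowest female 1187 TPM. With limma on log2(TPM + 1), its log2 fold change was 0.23 in B6 (adjusted p = 0.0112) and 0.32 in C3 (adjusted p = 0.00141), and Cyp2d26 was not called.

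**Figure D4:**
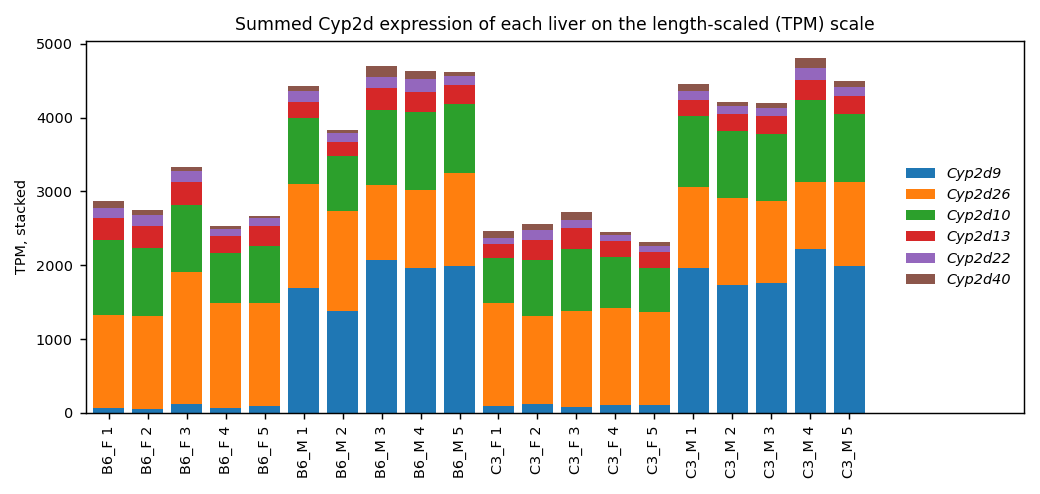
Stacked TPM of the 6 abundant Cyp2d genes in each of the 20 livers, from an axis at 0; Cyp2d11, Cyp2d12 and Cyp2d34 are too low to be drawn. The blue Cyp2d9 segment is 47.9 to 126 TPM in females and 1387 to 2221 TPM in males, and the stack above it is of similar height in both sexes.

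Along the chromosome, the genes around Cyp2d9 had smaller log2 fold changes between the sexes. The nearest members tested were Cyp2d10 at -49.5 kb, Cyp2d11 at -63.2 kb and Cyp2d22 at -81.8 kb from the start of Cyp2d9, and Cyp2d12 at 102.7 kb on the other side. The first 3 had negative log2 fold changes in both strains, of which those of Cyp2d10 and Cyp2d22 in C3 were called, and Cyp2d12 had a negative one in C3, all given above. Of the 36 other rows within 500 kb of the family, 23 were tested, and their lowest and highest log2 fold changes were -0.70 and 0.71 for B6 and -0.83 and 1.36 for C3. In B6, 1 of them was called, Cyb5r3, which encodes a cytochrome b5 reductase and was lower in females (-0.60). In C3, 1 was called, Cenpm, which encodes a centromere protein and was higher in females (1.36).

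**Figure D5:**
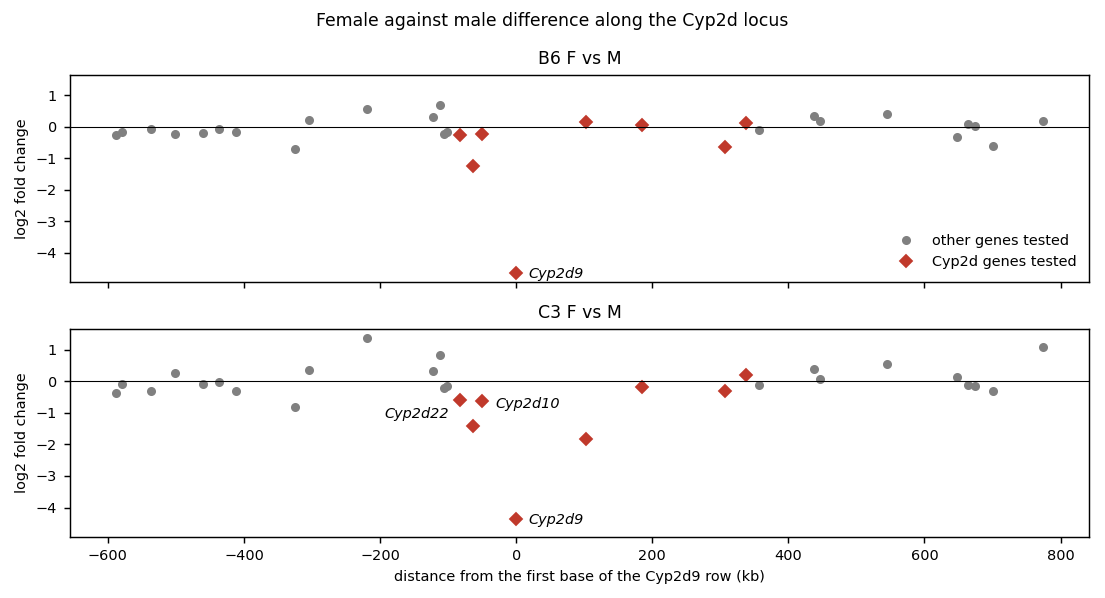
Log2 fold change of female over male against the distance of each gene's first coordinate from that of Cyp2d9 in kb, for the 8 Cyp2d genes (red) and the 23 other genes tested within 500 kb of the family (grey). Cyp2d9 stands at -4.62 in B6 and -4.36 in C3, and the lowest other point is Cyp2d11 at -1.24 in B6 and Cyp2d12 at -1.82 in C3.

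Genes that work with the family or are known to act on it were counted in lists. Of 6 redox partners of P450 enzymes, 1 rose and 2 fell in B6 females against males, and 1 rose in C3 females. The one that rose in both strains was Por, the P450 reductase (0.83 with a standard error of 0.12 in B6, adjusted p = 2.56e-05, and 0.96 with a standard error of 0.12 in C3, adjusted p = 6.07e-06), opposite in direction to Cyp2d9. Cyb5b, a cytochrome b5, and Cyb5r3 were those that fell in B6 (-0.53 and -0.60).

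Of 24 transcription factors and signals known for liver P450 genes or for Cyp2d9, 2 rose and 1 fell in B6 females, and 2 rose in C3 females. Cux2, a female-biased repressor of male-biased genes, rose in both strains (log2 fold change of 5.56 in B6 and 6.30 in C3). Bcl6, a repressor that is male-biased in liver, had a log2 fold change of -2.44 in B6. Esr1, the estrogen receptor, rose in both strains (1.39 and 1.01). Stat5b, Hnf4a, Gabpa and Gabpb1 were not among those called. Between the strains, Rsl1, the repressor known for Cyp2d9, was lower in C3 in both sexes, 2.24-fold in females (adjusted p = 1.63e-05) and 2.003-fold in males (adjusted p = 1.86e-04). Foxa3, a forkhead factor of liver, was higher in C3 females (1.39), and these were the only calls of the list between strains.

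Among 20 steroid-metabolizing enzymes tested, 7 were called higher and 6 lower in B6 females, and 6 higher and 6 lower in C3 females. In both strains those lower in females, and thus of the same direction as Cyp2d9, were Hsd3b2, Hsd3b3 and Hsd3b5 of the hydroxysteroid dehydrogenases, the steroid 5-alpha-reductase Srd5a1, the oxysterol hydroxylase Cyp7b1 and the glucuronosyltransferase Ugt2b1.

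Over the 20 livers, the genes whose pattern came closest to that of Cyp2d9 were Omd, C4a and Hcrtr2, none of them on chromosome 15. Likeness was measured as the root mean square difference of log2 CPM after each gene had been centred on its mean, and was 0.647, 0.764 and 0.773, where Cyp2d9 itself deviated from its mean by 2.29. C4a, a complement component, had group means of 3.63, 41.0, 6.97 and 73.6 CPM (B6_F, B6_M, C3_F and C3_M). Omd and Hcrtr2 were near the limit of detection in females. The group means of Omd were 0.323, 6.49, 0.165 and 5.20 CPM, and those of Hcrtr2 were 0.0488, 2.32, 0.00443 and 1.06 CPM in the same order, of which both female means lay below the level of 3 counts. For the other members the closest genes were Klhl2 for Cyp2d10 (0.114), Aldh7a1 for Cyp2d22 (0.153), Ptpra for Cyp2d26 (0.0853), U2af2 for Cyp2d13 (0.126), Qprt for Cyp2d40 (0.224), Aox1 for Cyp2d11 (0.599) and Gm16062 for Cyp2d12 (0.536), the last with group means of 0.167 to 0.319 CPM. Within the family the closest pair was Cyp2d10 and Cyp2d22 (0.19), and Cyp2d9 was at least 2.01 away from every other member tested. The livers share their groups and pools, so these values describe the 20 livers only.

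The summed TPM of several lists of markers of other liver cells differed between the sexes beside these results. The summed TPM of 5 Kupffer cell markers was 330 to 461 in B6 females and 197 to 315 in B6 males, and that of 5 endothelial markers was 237 to 289 and 183 to 207. In C3 the ranges were 228 to 346 in females and 139 to 211 in males for the Kupffer list, and 207 to 257 and 170 to 205 for the endothelial list. The summed hepatocyte markers were higher in females too, with overlap in B6, at 108000 to 139000 against 83700 to 110000 TPM in B6 and 147000 to 177000 against 112000 to 140000 TPM in C3. Alb, at 52500 to 138000 TPM, had the largest part of that sum. By gene, the median log2 fold change of the 6 hepatocyte markers was -0.35 in B6 and -0.28 in C3. In each strain 0 of them were called higher and 1 was called lower in females. The summed TPM of the 4 stellate and of the 5 lymphocyte markers was higher in females by the medians (304 against 229 and 13.0 against 6.97 TPM in B6, and 241 against 199 and 7.66 against 4.09 TPM in C3). By gene, few of these markers were called. In females, 1 of 5 Kupffer markers was called higher in each strain, and 1 of 5 lymphocyte markers in C3 but 0 in B6. Of the endothelial and stellate markers, 0 were called in either strain. The 4 cholangiocyte markers overlapped, and of the erythroid list only Alas2 was above 3 counts, with a list sum of 22.6 to 35.2 TPM in B6 females against 154 to 192 TPM in B6 males and of 17.4 to 28.7 against 194 to 223 TPM in C3. The part of these markers in the Cyp2d results was not tested. In such bulk samples, fewer cells of a type and less RNA per cell cannot be told apart.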

How the data were processed

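RNA-seq of 20 mouse livers was analysed. The authors sequenced strand-specific, ribosomal RNA-depleted libraries as 125 base read pairs, removed adapters with Cutadapt 1.9.1, aligned to mm9 with STAR 2.5.1b and counted on RefSeq genes with featureCounts of Subread 1.5.0-p1, leaving out pairs with several places or genes. The deposited raw counts per gene are not normalized, and the TPM values deposited by the authors scale them by a gene length whose definition is not given in the sources used here. The headers of symbol and identifier are exchanged and were read by content.

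Counts were filtered (filterByExpr), TMM-normalized and fitted over all 20 libraries by group and pool with the quasi-likelihood test of edgeR 4.0.16 in R 4.3.3, adjusted by Benjamini-Hochberg over 13704 genes. A gene was called at adjusted p under 0.001 and absolute log2 fold change over 0.5. The CPM values are TMM-scaled. The pipeline was tested on simulated data. Alternatives were DESeq2 1.42.0, limma 3.58.1 on log2(TPM + 1) or log2(TPM + 0.1), glmTreat, other normalizations, filters, terms, thresholds and libraries. Each group mean is over 5 mice. Each standard error is the absolute log2 fold change divided by the square root of the F statistic of the edgeR test. SDs and standard errors cover differences between livers, and the floor of 3 counts covers counting error only.

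The members, the gene lists and the tests were chosen with earlier results of these data known. A gene of the list of transcription factors is not reported here, and the counts of that list leave it out. All members are named. Other genes are named where they are closest to a member in pattern over the livers or, within a list, among the 3 largest changes called. Cyp3a41a, Sult2a2, Cyp2a4 and Cyp2b9, which that rule selects among the steroid enzymes, are given no value, and the 6 named male-biased enzymes, and the factors not called, were chosen after their values were seen. Upstream sequences and transcripts are from the mm9 genome and GENCODE M1. The 5 member promoters in the RefSeq table (GRCm38.p6) were found unchanged in the mm9 locus, and the rows matched GENCODE within 61 bases. Cyp2d13 had no transcript there. Alignment used Biopython 1.88.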

Additional observations from a re-analysis of the deposited data

Results flagged for a closer look

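Over 32 sets of 5 livers of one member in one group, 2 held a liver set apart from the other 4 (gap to the nearest liver over the whole range above the 95% limit), and chance gives about 1 in 20. Cyp2d11 in C3 males was lowest in 1 liver, with 2 counts against 8 to 14 in the others (gap over range 0.738). Cyp2d12 in B6 males was highest in 1 liver of pool 3, with 53 counts against 13 to 21 in the others (gap over range 0.724).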

How the results depend on the processing

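Cyp2d9 was called lower in females in both strains under each of 15 alternatives and with each of the 20 libraries left out. The alternatives with no fold limit reuse the main fit and had to keep this call. In B6, the count of 1 member called became 2 with DESeq2 (Cyp2d40 added) and 5 at an adjusted p under 0.05 with no fold limit. Leaving out 1 library gave 1 to 2, the second being Cyp2d40 without C3_F replicate 1 or C3_F replicate 2. In C3, the count of 3 became 4 with DESeq2 (Cyp2d12 added), 2 with limma on log2(TPM + 1) (Cyp2d22 lost), 1 with glmTreat, 1 without the pool term, 1 without the 7 libraries of pool 3 (chosen after seeing the data) and 6 at an adjusted p under 0.05, and stayed 3 to 3 with 1 library left out. At that looser threshold 5 members were called between strains in females and 1 in males, against 0. Leaving out 1 library gave 0 to 0 in both strain comparisons and in the interaction, and summed levels of 2707 to 2907 TPM in B6_F, 4382 to 4600 in B6_M, 2448 to 2550 in C3_F and 4339 to 4491 in C3_M.

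Directions changed for small values that were not called. Between C3 and B6 males, Cyp2d13 was at -0.001 with limma at either pseudocount and -0.016 with total counts, and Cyp2d40 at -0.024 without the pool term. The interaction was -0.039 for Cyp2d9 without pool 3, and 0.118 with limma on log2(TPM + 1) and 0.024 without the pool term for Cyp2d11. With 1 library left out, Cyp2d12 ran from -0.109 to 0.519 and Cyp2d13 from -0.07 to 0.098 in B6 females against males, Cyp2d26 from -0.113 to 0.003 between the strains in females, Cyp2d13 from -0.016 to 0.108 and Cyp2d22 from -0.064 to 0.001 in males, and the interaction of Cyp2d11 from -0.492 to 0.046. The cause was not tested. With 1 library left out, 789 of 800 member log2 fold changes kept direction and side of the threshold. In all, 1691 of 1776 alternative values were counted as the same, by a rule that depended on the kind of value. Refitted log2 fold changes had to keep direction and side of the threshold. Within-pool differences, shares and sums had to lie within the SD of the main value. Numbers of members called had to be close to the main number. Leaving out 1 liver cannot move the mean of its group by as much as that SD. The shares and sums with 1 library left out therefore had to be counted as the same. They are part of the 1691 but test nothing.

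Replicate numbers were shared between groups. The correlations of same-numbered livers ran from -0.463 to 0.631 and passed 0.1 in 1, 0, 3 and 3 of 5 pairs in the 4 comparisons, and every pair past 0.1 shared a pool. With pool removed as well they ran from -0.204 to 0.316 and lay on both sides of 0 in each comparison, so the numbers were not used as pairs. With a replicate block the counts of members called were 1, 3, 0, 0 and 0, the same as without it. Depth limits Cyp2d34, Cyp2d11 and Cyp2d12.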
